A study of Mus musculus with 56 samples.

Results

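Fatty acid oxidation and ketogenesis were followed through 39 genes in livers of mice with diet-induced obesity and metabolic dysfunction-associated steatohepatitis (DIO-MASH). The genes were taken by symbol from the table of read counts, which holds 21935 genes. All 39 were in the table, and all 39 were among the 14105 genes that had at least 5 reads in at least 3 mice and were tested. Of these, 3 are regulators, and the others carry fatty acids into mitochondria and peroxisomes, oxidise them there, make ketone bodies, split acyl-CoA esters or set the choice of fuel.

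RNA was measured by sequencing in 56 male C57BL/6J mice, in 7 groups of 8. The mice were 5 to 6 weeks old on arrival and ate chow or the AMLN diet, which is high in trans-fat, fructose and cholesterol, for 36 weeks before dosing began. They were then dosed under the skin once a day for 8 weeks. Both the chow vehicle and the DIO-MASH vehicle group received vehicle, and all groups other than chow vehicle ate the AMLN diet throughout. Low-dose and high-dose zalfermin, an analog of the hormone FGF21, were 0.05 and 0.2 mg/kg. Low-dose and high-dose semaglutide, which activates the GLP-1 receptor, were 3 and 120 µg/kg. The combination received both drugs: according to the methods of the study at the low doses of 0.05 mg/kg and 3 µg/kg, whereas the design text of the series names both high doses, and the sample labels give no dose. The model is dietary in 1 inbred strain, and DIO-MASH mice were admitted to the study only with steatosis and fibrosis in a biopsy, so all groups on that diet were selected as diseased.

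Fatty acids that reach the liver are activated to acyl-CoA, handed to carnitine to cross the mitochondrial membranes, and shortened by repeated rounds of β-oxidation. Very long and branched chains are first shortened in peroxisomes. The acetyl-CoA that results enters the citric acid cycle or, in fasting, is turned into ketone bodies that leave the liver as fuel. The nuclear receptor PPARα, activated by fatty acids, drives transcription of many of these genes in hepatocytes. Its partner in transcription is the retinoid X receptor, and the pair binds PPAR response elements.

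Sequencing depth was 5228187 to 20885786 reads a mouse (median 12206788), and levels are given below as CPM, counts scaled to a fixed total of reads and normalised between libraries. These are not divided by gene length, so they are compared only between groups for the same gene. In 2 groups, 1 library stood apart from its group. Over all tested genes, the root mean square difference in log2 CPM from the median of the other mice was 0.863 for low-dose semaglutide mouse 6, against a median of 0.465 over the mice of that group, and 0.980 for chow mouse 8, against 0.567. The study excluded 1 low-dose semaglutide library, which the table does not mark, so all 8 were kept and results were recomputed without mouse 6. In bulk liver, fewer cells of a type and less RNA per cell cannot be told apart. The tissue was liver by its markers: the summed level of the 7 hepatocyte genes in the table, of 8 listed, ranged from 67219 to 257268 CPM, whereas the markers of fat cells, muscle and brown fat stayed at or below 1.72 CPM.

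Upstream sequence was read to see which of the genes carry a PPAR response element next to their start. The element was searched as 2 copies of AGGNCA in the same direction with 1 base between them, on both strands, in windows of 250 bases before to 50 bases after each transcription start. RefSeq start sites on GRCm38.p6 covered 33 of the 39 genes with 37 windows. With no mismatch the element was in 0.381% of all 32851 windows and in 1 of the 37, that of Fabp1. With 1 mismatch allowed it was in 4.71% of all windows and in 8 of the 37 (21.6%), those of Acot12, Acot4, Creb3l3, Echs1, Etfa, Etfb, Fabp1 and Hadh. A match is a description of the letters, not a site shown to be used. The 250 bases upstream of 4 genes are shown, 5′ to 3′ on the strand of the gene with the match in capitals. Fabp1 (chr6:71199629-71199878, plus strand) has the only full match of the module, and Acot4 (chr12:84038129-84038378, plus strand), Etfa (chr9:55512244-55512493, minus strand) and Etfb (chr7:43443822-43444071, plus strand) are among the genes whose levels rose with treatment. Of the other matched genes, Echs1 and Hadh also rose with the combination, whereas Creb3l3 and Acot12, like Fabp1, rose in no drug group. Other genes that rose, among them Acot3 and Acadvl, had no match or no window. Whether the element goes with the rises was not tested.
Fabp1: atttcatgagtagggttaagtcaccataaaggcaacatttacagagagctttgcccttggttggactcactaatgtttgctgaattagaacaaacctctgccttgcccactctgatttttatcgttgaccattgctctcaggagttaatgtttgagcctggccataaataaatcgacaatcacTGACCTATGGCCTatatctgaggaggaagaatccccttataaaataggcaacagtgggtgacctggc
Acot4: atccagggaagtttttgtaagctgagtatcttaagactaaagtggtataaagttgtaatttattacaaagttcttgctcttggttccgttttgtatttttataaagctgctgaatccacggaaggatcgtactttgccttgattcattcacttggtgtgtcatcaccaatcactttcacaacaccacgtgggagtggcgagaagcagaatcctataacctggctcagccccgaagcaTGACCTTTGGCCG
Etfa: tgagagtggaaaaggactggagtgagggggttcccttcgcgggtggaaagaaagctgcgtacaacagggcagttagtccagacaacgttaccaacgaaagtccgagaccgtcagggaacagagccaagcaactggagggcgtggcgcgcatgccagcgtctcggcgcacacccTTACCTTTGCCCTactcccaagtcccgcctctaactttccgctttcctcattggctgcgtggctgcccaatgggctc
Etfb: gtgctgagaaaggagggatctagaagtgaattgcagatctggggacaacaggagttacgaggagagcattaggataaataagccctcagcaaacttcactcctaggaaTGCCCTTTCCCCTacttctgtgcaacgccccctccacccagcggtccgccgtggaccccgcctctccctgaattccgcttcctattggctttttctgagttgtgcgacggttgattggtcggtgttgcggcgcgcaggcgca
All 4 matches lie on the strand opposite to the gene. Their centres are 61 bases before the start for Fabp1, 7 for Acot4, 71 for Etfa and 136 for Etfb. The levels of all 4 genes are given with their roles below.

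Across the module, the diet and the drugs changed individual genes in both directions and left the median close to zero. A gene is said to have risen or fallen where its adjusted p in edgeR's quasi-likelihood test, with Benjamini-Hochberg adjustment over all 14105 genes, was below 0.05. Chow and DIO-MASH vehicle differed in 19 of the 39 genes, 12 higher and 7 lower in chow (48.7%, where 55.4% of all tested genes passed). The combination differed from DIO-MASH vehicle in 15, of which 12 rose and 3 fell (38.5%, against 20.9% of all genes). High-dose zalfermin changed 8 genes, 4 up and 4 down (20.5%, against 17.2% of all genes), and high-dose semaglutide raised 2 (5.13%, against 2.43%). Before adjustment, edgeR's test gave p below 0.05 for 20 of the 39 genes in chow and 19 in the combination mice. It did so for 15 at the high zalfermin dose and 11 at the high semaglutide dose. The adjustment was made within each comparison, so the counts of genes passing do not rank the sizes of the changes. With 1 mouse left out, the number called ranged from 17 to 21 for chow and from 8 to 11 for high-dose zalfermin. The combination called 9 without combination mouse 3. High-dose semaglutide called 6 without high-dose semaglutide mouse 7 and 1 without mouse 2, 3 or 4. Fitted on its own with vehicle, high-dose zalfermin called 14 and high-dose semaglutide 1. With low-dose zalfermin none passed, against 0.468% of all genes, and 2 had an unadjusted p below 0.05. With low-dose semaglutide neither a member nor any other gene passed (0% of all genes), and none of the 39 had an unadjusted p below 0.05. DESeq2's Wald test also called 0 of the 39 at either low dose. Without low-dose semaglutide mouse 6 the counts were 19 for chow, 15 for the combination, 11 and 2 for the high doses of zalfermin and semaglutide, and 0 for both low doses, and without chow mouse 8 the chow count was 18. These 6 comparisons share the 8 vehicle mice, so their lists are not independent of each other.

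**Figure D1:**
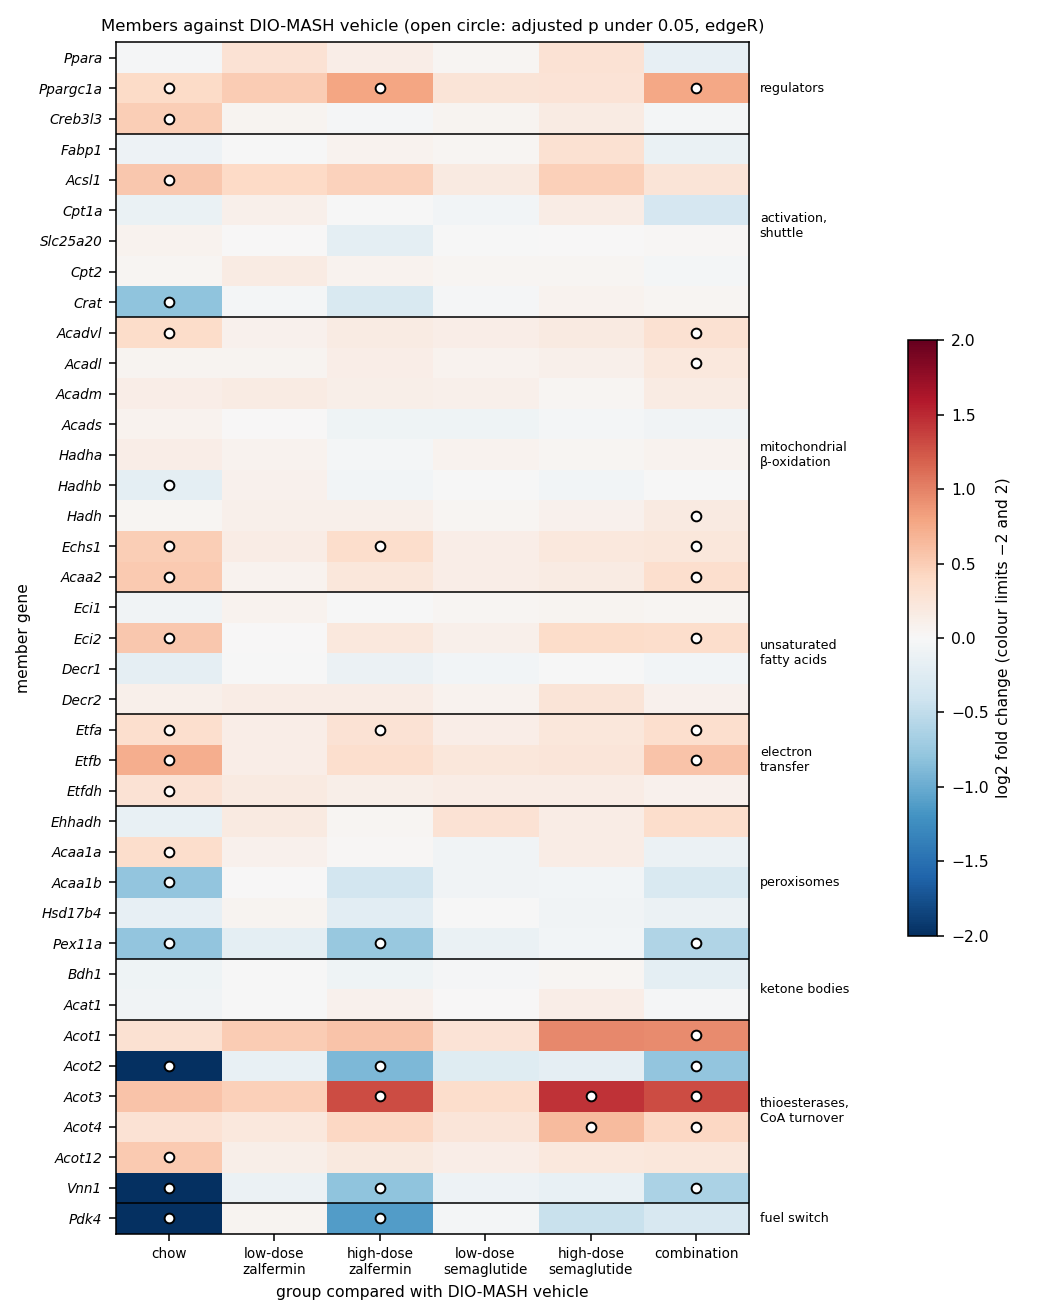
Log2 fold change of each of the 39 genes (rows, grouped by role) in each group against DIO-MASH vehicle (columns), with an open circle where the adjusted p was below 0.05. Circles are most frequent in the chow and combination columns (19 and 15), absent at both low doses, and the colour is saturated in the chow column for Pdk4, Vnn1 and Acot2, whose values lie below -2.

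The median log2 fold change of the 39 genes was 0.07 in chow, 0.08 and 0.07 at the low and high dose of zalfermin, 0.05 and 0.15 at those of semaglutide, and 0.04 in the combination, where all tested genes had medians from -0.03 to -0.0031. A score for each mouse, the mean over the 39 genes of log2 CPM less each gene's mean over all 56 mice, averaged -0.06 ± 0.16 (SD, n = 8) in DIO-MASH vehicle. It averaged -0.14 ± 0.21 in chow, 0.06 ± 0.12 and -0.02 ± 0.07 with low-dose and high-dose zalfermin, 0.01 ± 0.08 and 0.11 ± 0.19 with low-dose and high-dose semaglutide, and 0.03 ± 0.13 with the combination. The difference in score from DIO-MASH vehicle was at most 0.17 log2 units in any group, within or close to the spread between mice of a group. The numbers in the labels fall into 4 runs. Within the 3 runs that held every group, the score difference changed sign in all 6 groups. For high-dose semaglutide it was 0.28, -0.03 and -0.01 in runs A, B and C, with 2 to 4 treated mice and 2 or 3 vehicle mice in each. What the numbers and the runs stand for is not given in the labels. For single genes, 39 of the 44 changes against DIO-MASH vehicle had the same sign within all 3 runs, and the 5 that did not are named with their genes.

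Markers of liver cell types moved in the same comparisons. The summed hepatocyte markers had a median of 77156 CPM (67219 to 90167) in DIO-MASH vehicle and 171884 (154839 to 257268) in chow, with 7 of 7 higher. They were at 119124 (94627 to 143975) with the combination and 110098 (82109 to 145200) with high-dose zalfermin, with 6 of 7 higher in each, at 105160 (72439 to 124482) with high-dose semaglutide, with 1 higher, and at 84310.2 and 89899 with low-dose zalfermin and semaglutide, with none. Macrophage markers of monocyte origin had a median of 541 CPM in vehicle against 70.3 in chow (6 of 6 lower), 252 with the combination (3 lower), 297 with high-dose zalfermin (4 lower) and 258 with high-dose semaglutide (none lower). Stellate cell markers were at 1122 CPM in vehicle, 186 in chow (4 of 6 lower), 414 with the combination (4 lower), and 490.2 and 541 at the high doses of zalfermin and semaglutide (2 lower in each). Like the markers, members moved in both directions, with Etfa higher and Vnn1 lower in chow, high-dose zalfermin and the combination alike. The part of the marker shifts in the changes of the 39 genes was not tested.

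The other marker lists had fewer genes. Of 4 Kupffer cell markers, 1 was higher and 1 lower in chow, 2 were higher with the combination and 1 with high-dose zalfermin. Of 4 sinusoidal endothelial markers, 1 was higher and 2 lower in chow and 1 lower with the combination. Of 4 cholangiocyte markers 2 were lower in chow. Their summed median was 12.5 CPM in chow against 48.9 in DIO-MASH vehicle, but the highest chow mouse, at 256, was above the highest vehicle mouse, at 79.3. All 3 T cell markers in the table, of 4 listed, were lower in chow, all 3 B cell markers were lower in chow and with high-dose semaglutide, and of 4 red blood cell markers 1 was higher in chow and 1 lower with the combination. Of the 3 adipocyte and 4 muscle markers and the brown fat marker Ucp1 none passed the filter on low counts, and Ucp1 was at 0 in 6 of the 7 groups.

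Among the regulators, Ppargc1a rose with the combination and with high-dose zalfermin, while Ppara did not pass in any comparison. Ppara encodes PPARα itself. Its lowest, median and highest CPM were 73, 165 and 217 in DIO-MASH vehicle, 78.9, 156 and 259 in chow, 155, 186 and 248 with low-dose zalfermin, 146, 172 and 200.0 with high-dose zalfermin, 114, 175 and 202 with low-dose semaglutide, 145, 189 and 289 with high-dose semaglutide, and 50.4, 159 and 172 with the combination. All groups overlapped, and the log2 fold change against DIO-MASH vehicle ranged from -0.17 (SE 0.19, adjusted p = 0.554) with the combination to 0.29 (SE 0.19, adjusted p = 0.43) with high-dose semaglutide.

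Ppargc1a encodes PGC-1α, a coactivator of PPARα and of mitochondrial genes. Its lowest, median and highest CPM were 5.69, 8.64 and 12.1 in DIO-MASH vehicle, 12.7, 14.7 and 18.5 with high-dose zalfermin and 11.5, 14.1 and 23.5 with the combination. Every high-dose zalfermin mouse was above every vehicle mouse, and the combination overlapped vehicle only slightly. The log2 fold changes were 0.79 ± 0.17 (SE), adjusted p = 0.000543, and 0.78 ± 0.17 (SE), adjusted p = 0.000532, which is 1.72-fold in both groups. In low-dose zalfermin the values were 7.46, 13.8 and 16.4, a log2 fold change of 0.51 ± 0.17 (SE), adjusted p = 0.163. They were 8.95, 9.80 and 13.7 with low-dose semaglutide (0.26 ± 0.17 (SE), adjusted p = 0.68) and 6.48, 10.8 and 13.3 with high-dose semaglutide (0.28 ± 0.17 (SE), adjusted p = 0.387). Chow mice, at 7.61, 10.8 and 15.8, passed narrowly (0.39 ± 0.17 (SE), adjusted p = 0.0482). That last call was lost with DESeq2 (adjusted p = 0.0508) or its size factors (0.0546), with no filter beyond 1 read (0.0597), with only the 2 groups compared (0.12) and in 9 of 17 fits that each left out 1 mouse, with an adjusted p up to 0.135 without chow mouse 2, and within runs A, B and C the chow difference was 0.61, -0.37 and 0.40.

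Creb3l3 encodes CREBH, a liver transcription factor that works with PPARα in fasting. Its CPM were 261, 296 and 412 in chow against 197, 219.7 and 275 in DIO-MASH vehicle, so chow was higher with overlap at the edges (0.50 ± 0.08 (SE), adjusted p = 8.64e-07). In the drug groups it was 204, 242 and 268 with low-dose zalfermin, 199.6, 224 and 248 with high-dose zalfermin, 193, 239.8 and 268 with low-dose semaglutide, 216, 254 and 289 with high-dose semaglutide and 201, 226 and 234 with the combination. None of these 5 groups passed, with log2 fold changes from -0.04 (SE 0.08, adjusted p = 0.765) to 0.16 (SE 0.08, adjusted p = 0.29).

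**Figure D2:**
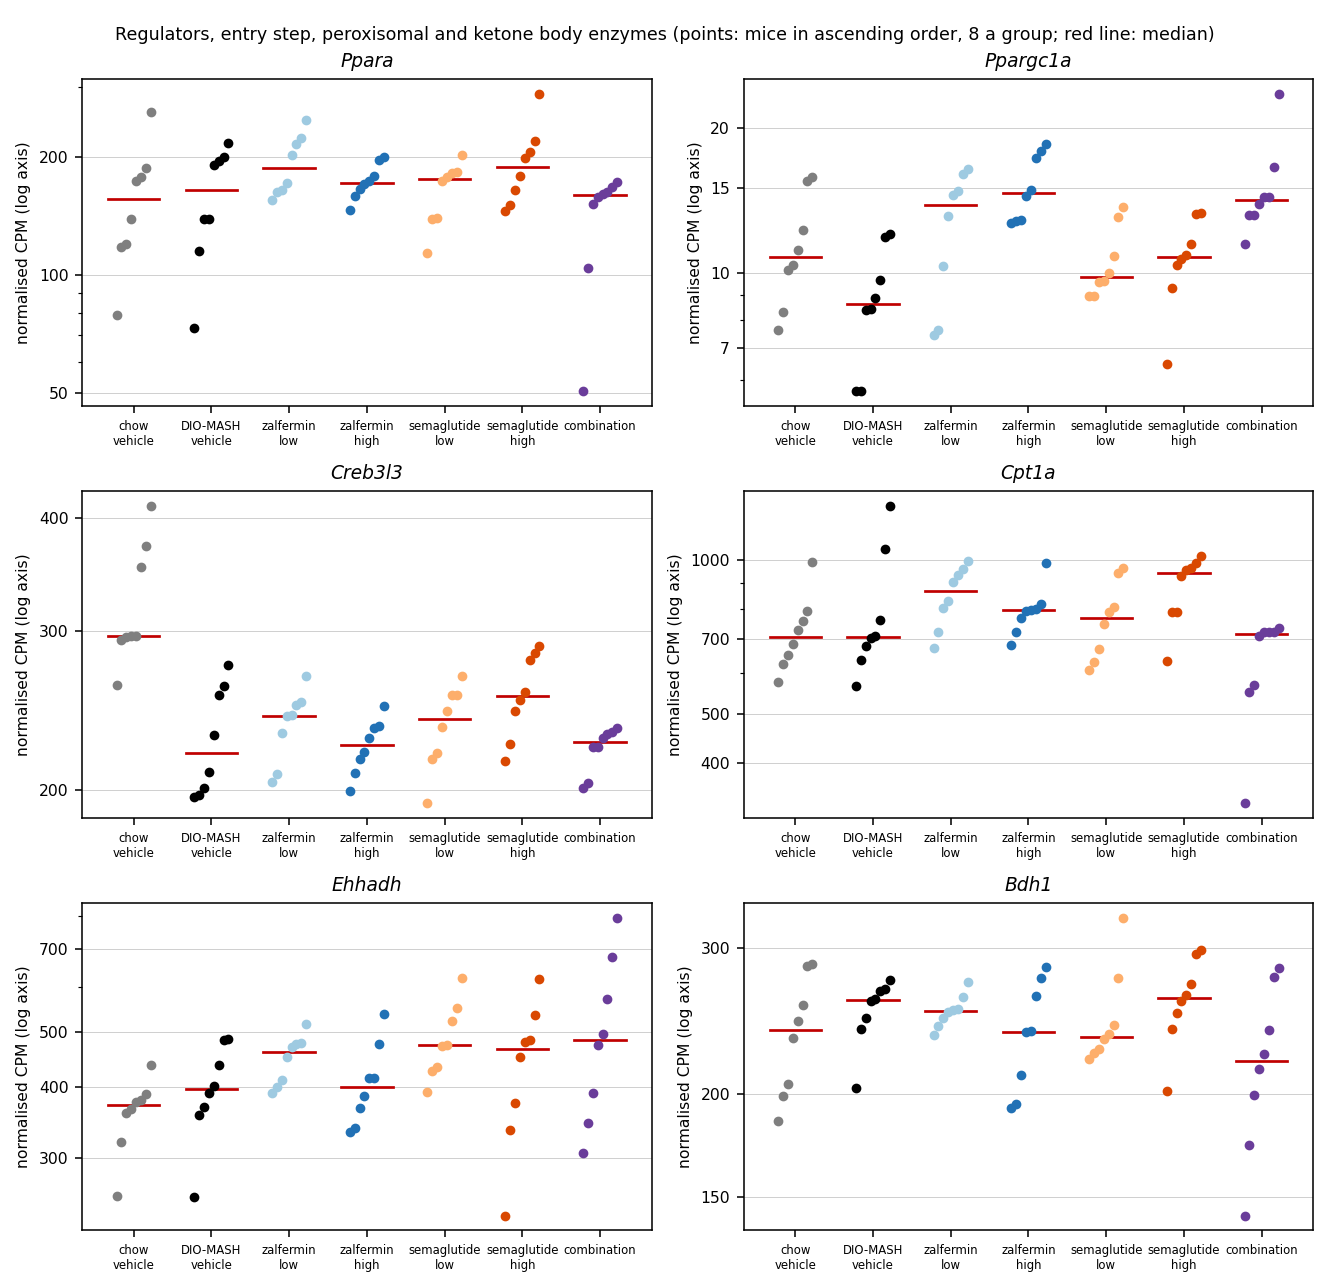
CPM (log axis) of the 3 regulators and of Cpt1a, Ehhadh and Bdh1 in each mouse of the 7 groups, with the group median as a red line. High-dose zalfermin and combination mice lie high for Ppargc1a (medians 14.7 and 14.1 against 8.64 in DIO-MASH vehicle), chow mice lie high for Creb3l3, and for Ppara, Cpt1a, Ehhadh and Bdh1 every group overlaps with vehicle.

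Of the 6 genes for activation, binding and the carnitine shuttle, Acsl1 was higher and Crat lower in chow than in DIO-MASH vehicle, and no drug group passed for any of them. Cpt1a, the carnitine palmitoyltransferase that limits entry into mitochondria, had lowest, median and highest CPM of 567, 706 and 1276 in DIO-MASH vehicle and 576, 707 and 991 in chow. They were 671, 869 and 994 with low-dose zalfermin, 683, 796 and 988 with high-dose zalfermin, 608, 771 and 962 with low-dose semaglutide, 634, 943 and 1016 with high-dose semaglutide, and 333, 716 and 736 with the combination. All groups overlapped with vehicle, and the combination held the lowest mouse. Against DIO-MASH vehicle the log2 fold change was -0.14 ± 0.14 for chow (adjusted p = 0.406), -0.33 ± 0.14 for the combination (0.073), and between -0.05 and 0.15 elsewhere.

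Crat, carnitine acetyltransferase, which moves acetyl groups between CoA and carnitine, had CPM of 30.9, 61.3 and 92.6 in chow against 81, 104 and 156 in DIO-MASH vehicle, with little overlap and chow lower (-0.81 ± 0.16 (SE), adjusted p = 1.72e-05). The same values were 83.7, 107 and 120.1 with low-dose zalfermin, 67.9, 84 and 124 with high-dose zalfermin, 75.3, 108 and 126 with low-dose semaglutide, 89.6, 112 and 149 with high-dose semaglutide, and 73.7, 111 and 141 with the combination. The drug groups lay around the vehicle level rather than the chow level, and their log2 fold changes ran from -0.30 (adjusted p = 0.179) with high-dose zalfermin to 0.07 (adjusted p = 0.853) with high-dose semaglutide. Acsl1, the main acyl-CoA synthetase of liver, was higher in chow (0.53 ± 0.18 (SE), adjusted p = 0.00861), and its value for high-dose zalfermin was 0.46 ± 0.18 (adjusted p = 0.0593). Fabp1, the fatty acid binding protein of the hepatocyte cytosol, ranged from 679 to 4245 CPM in chow and from 2403 to 2966 in DIO-MASH vehicle, with log2 fold changes between -0.13 and 0.30. Slc25a20, which exchanges acylcarnitine across the inner membrane, and Cpt2, which returns the acyl group to CoA, lay between -0.19 and 0.17 in the 6 comparisons.

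In the mitochondrial β-oxidation spiral, 3 of 9 enzymes were higher and 1 lower in chow, 5 were higher with the combination and 1 with high-dose zalfermin. Of all tested genes, 55.4% passed in chow, 20.9% with the combination and 17.2% with high-dose zalfermin, and these shares stand beside the counts of every role. Here only the combination count was above its share. Acadvl, the dehydrogenase for very long chains, was 362, 378 and 389 CPM (lowest, median, highest) in DIO-MASH vehicle, 442, 489 and 532 in chow and 409, 456 and 535 with the combination. Neither the chow nor the combination mice overlapped with vehicle, and the log2 fold changes were 0.37 ± 0.08 (SE), adjusted p = 4.49e-05, and 0.31 ± 0.08 (SE), adjusted p = 0.00242. Of all tested genes, 16% did not overlap between chow and vehicle and 3.98% did not between the combination and vehicle. With high-dose zalfermin, at 377, 422 and 462, Acadvl did not pass (0.17 ± 0.08 (SE), adjusted p = 0.118). Of its 75-base stretches, 19.5% lie antisense to transcripts of Dvl2, and whether the counts used strand is not given in the sources used here.

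Echs1, the hydratase for short chains, had CPM of 226, 234 and 259.6 in DIO-MASH vehicle, 274, 344 and 371 in chow, 276, 302 and 379 with high-dose zalfermin and 241, 289.9 and 306 with the combination. Chow and high-dose zalfermin mice were all above the vehicle mice, and the combination overlapped. The log2 fold changes were 0.49 ± 0.08 (SE), adjusted p = 2.42e-07, 0.36 ± 0.08 (SE), adjusted p = 0.000426, and 0.22 ± 0.08 (SE), adjusted p = 0.0282, the last lost without vehicle mouse 4 or combination mouse 3 or 4 (adjusted p up to 0.057). Acaa2, the thiolase of the mitochondrial matrix, was higher in chow (0.53 ± 0.09 (SE), adjusted p = 8.64e-07) and with the combination (0.34 ± 0.09 (SE), adjusted p = 0.00316), and at 0.23 ± 0.08 with high-dose zalfermin it did not pass (adjusted p = 0.0558). Acadl, the long-chain dehydrogenase, and Hadh, the short-chain hydroxyacyl dehydrogenase, rose with the combination by 0.22 (adjusted p = 0.0179) and 0.19 (0.029) on the log2 scale. The Acadl call was lost without combination mouse 3 (adjusted p = 0.0519) and the Hadh call without vehicle mouse 4 or 8 or combination mouse 4 or 5 (adjusted p up to 0.119) or with only the 2 groups compared (0.0867).

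Of the other 4 enzymes of the spiral Hadhb passed, in chow, and the rest did not. Acadm, the medium-chain dehydrogenase, had lowest, median and highest CPM of 230.1, 271 and 305 in DIO-MASH vehicle, 266, 282 and 339.8 in chow, 276, 301 and 353 with low-dose zalfermin, 263, 293 and 341 with high-dose zalfermin, 263, 279 and 372 with low-dose semaglutide, 218, 275 and 342 with high-dose semaglutide, and 248, 292 and 366 with the combination. These ranges overlapped, and its log2 fold changes lay between 0.03 (SE 0.08, adjusted p = 0.875) and 0.16 (SE 0.08, adjusted p = 0.143). Hadha, the α subunit of the trifunctional protein for long chains, was 404, 506 and 559.8 in DIO-MASH vehicle, 395, 565 and 607 in chow, 464, 539 and 572 with low-dose zalfermin, 425, 487 and 543 with high-dose zalfermin, 483, 523 and 554 with low-dose semaglutide, 432, 514 and 582 with high-dose semaglutide, and 429, 518 and 658 with the combination. Its groups overlapped as well, with log2 fold changes from -0.05 (SE 0.08, adjusted p = 0.733) to 0.13 (SE 0.08, adjusted p = 0.144). Hadhb, the β subunit of the same protein, lies next to Hadha on chromosome 5, on the other strand, and was slightly lower in chow (-0.20 ± 0.08 (SE), adjusted p = 0.0383). That call was lost in 11 of 17 fits that each left out 1 mouse (adjusted p up to 0.126, without chow mouse 2), with a stricter filter (0.0654) and with only the 2 groups compared (0.0619), and within run C the difference was 0.08. Of its 75-base stretches, 16.7% also occur in other genes, mostly Gm13910. Acads, for short chains, lay between -0.09 and 0.07.

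Electrons from the acyl-CoA dehydrogenases pass through the electron transfer flavoprotein, whose subunits are encoded by Etfa and Etfb, and then through its dehydrogenase, encoded by Etfdh. All 3 genes were higher in chow than in DIO-MASH vehicle, both subunits rose with the combination, and Etfa rose with high-dose zalfermin. Etfa had lowest, median and highest CPM of 264, 284 and 312 in DIO-MASH vehicle, 335, 357 and 392 in chow, 319, 342 and 381 with high-dose zalfermin and 314, 345 and 433 with the combination. In each of these 3 groups every mouse was above every vehicle mouse, and the log2 fold changes were 0.34 ± 0.08 (SE), adjusted p = 0.00017 (chow), 0.29 ± 0.08 (SE), adjusted p = 0.00486 (high-dose zalfermin) and 0.33 ± 0.08 (SE), adjusted p = 0.001 (combination). With high-dose semaglutide, at 286, 334 and 369.7, it did not pass (0.22 ± 0.08 (SE), adjusted p = 0.1).

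Etfb had CPM of 36.2, 45 and 61.4 in DIO-MASH vehicle, 59.6, 68.5 and 104 in chow and 58.7, 66 and 95.5 with the combination. Both groups overlapped vehicle only at the edge, and the log2 fold changes were 0.72 ± 0.12 (SE), adjusted p = 2.38e-06, and 0.57 ± 0.12 (SE), adjusted p = 0.000627. High-dose zalfermin, at 40.4, 59.3 and 70, did not pass (0.33 ± 0.12 (SE), adjusted p = 0.054). Of the 75-base stretches in the transcripts of Etfb, 39.6% also occur in transcripts of Gm45233, which overlaps it on the same strand, so how the authors' counting divided such reads could move its level. Etfdh was higher in chow (0.30 ± 0.10 (SE), adjusted p = 0.0141) and between 0.09 and 0.18 in the drug groups.

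**Figure D3:**
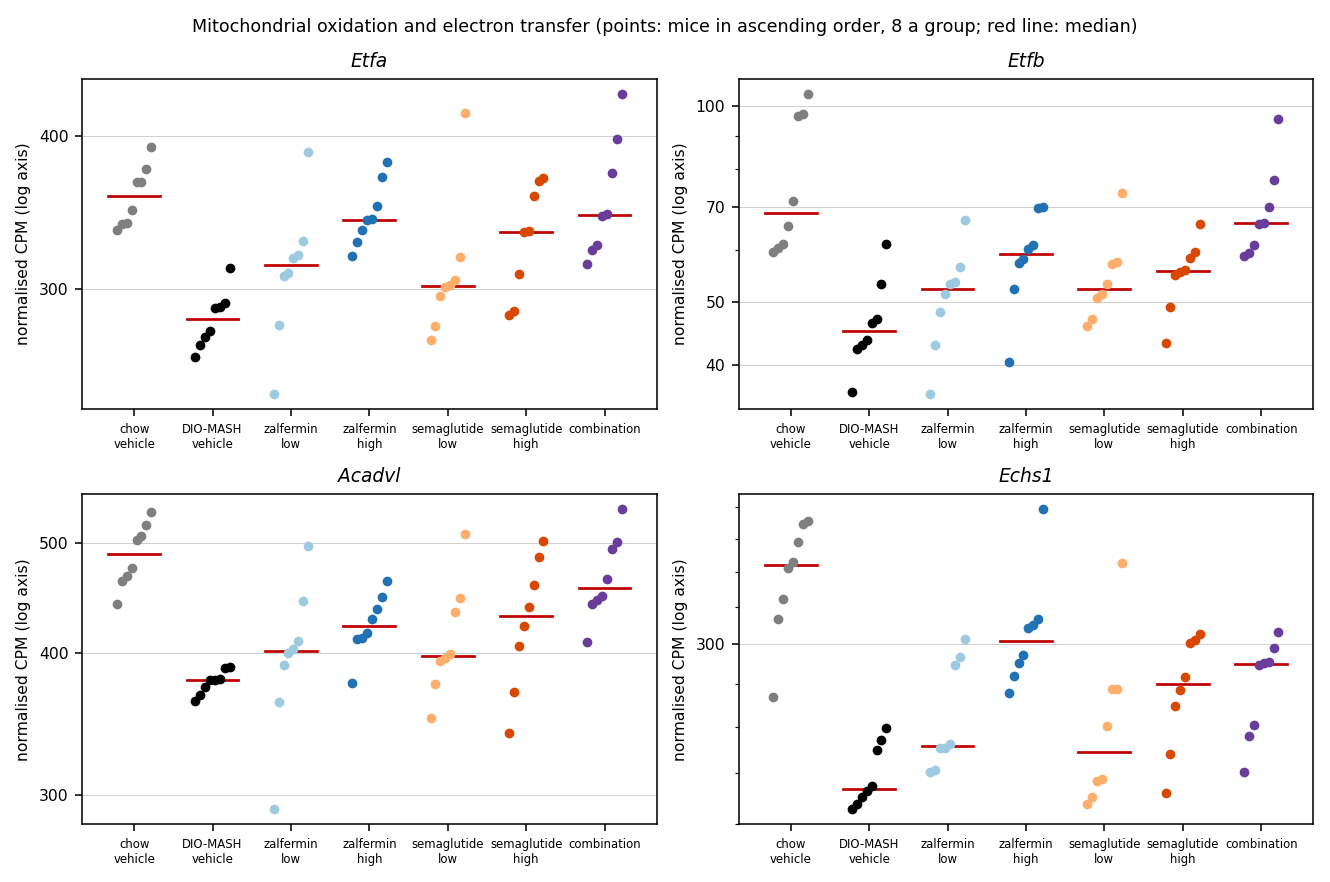
CPM (log axis) of Etfa, Etfb, Acadvl and Echs1 in each mouse of the 7 groups, with the group median as a red line. For Etfa all chow, high-dose zalfermin and combination mice lie above the highest DIO-MASH vehicle mouse, whereas the low-dose groups overlap with vehicle for all 4 genes.

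Unsaturated chains need auxiliary enzymes, of which Eci2, an enoyl-CoA isomerase, was the only one of 4 to pass. It was higher in chow (0.55 ± 0.12 (SE), adjusted p = 0.000215) and with the combination (0.36 ± 0.12 (SE), adjusted p = 0.0332). The combination call was lost in 6 of 17 fits that each left out 1 mouse, with an adjusted p up to 0.0775 without vehicle mouse 8. It was also lost with the run of label numbers as a block (0.32 on the log2 scale, adjusted p = 0.0546). Within runs A, B and C the difference was 0.48, 0.24 and 0.13. Its partner Eci1, and the dienoyl-CoA reductases Decr1 of mitochondria and Decr2 of peroxisomes, had log2 fold changes between -0.17 (Decr1 in chow) and 0.25 (Decr2 with high-dose semaglutide), and none passed.

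Peroxisomal genes moved apart from each other. Pex11a, which promotes the division of peroxisomes, was lower in chow, with high-dose zalfermin and with the combination, whereas the enzymes passed only in chow and in opposite directions. Pex11a had lowest, median and highest CPM of 101, 143 and 211 in DIO-MASH vehicle, 43.7, 75.2 and 149 in chow, 47.3, 86.5 and 155 with high-dose zalfermin and 66.7, 94.8 and 124 with the combination. The groups overlapped, and the log2 fold changes were -0.79 ± 0.21 (SE), adjusted p = 0.00149 (chow), -0.76 ± 0.21 (SE), adjusted p = 0.00809 (high-dose zalfermin) and -0.60 ± 0.21 (SE), adjusted p = 0.0331 (combination). The combination call was lost in 7 of 17 fits that each left out 1 mouse (adjusted p up to 0.0929, without vehicle mouse 6). With high-dose semaglutide, at 92.7, 140.4 and 198, the log2 fold change was -0.05 ± 0.21.

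Acaa1b, a peroxisomal thiolase, had CPM of 1677, 1859.9 and 1982 in DIO-MASH vehicle and 234, 1109 and 1466 in chow. They were 1292, 1932 and 2427 with low-dose zalfermin, 1123, 1430.2 and 1646 with high-dose zalfermin, 1545, 1773 and 1992 with low-dose semaglutide, 1049.8, 1791 and 2636 with high-dose semaglutide, and 1112, 1325 and 2581 with the combination. All chow mice and all high-dose zalfermin mice were below all vehicle mice, but only chow passed (-0.79 ± 0.18 (SE), adjusted p = 0.000261), and high-dose zalfermin did not (-0.36 ± 0.18 (SE), adjusted p = 0.167). The lowest chow value is that of chow mouse 2. Its paralog Acaa1a was higher in chow (0.35 ± 0.12 (SE), adjusted p = 0.00964), and between -0.11 and 0.15 in the drug groups. The 2 thiolases share sequence: 24.4% of the 75-base stretches of Acaa1b also occur in Acaa1a, so reads from the shared part could be assigned to either, and the opposite directions were seen on the counts as deposited.

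Ehhadh, the bifunctional peroxisomal enzyme, is a common readout of PPARα activity in rodents. Its CPM were 256, 396 and 486 in DIO-MASH vehicle, 257, 371 and 437 in chow, 391, 461 and 515 with low-dose zalfermin, 333, 400.4 and 537 with high-dose zalfermin, 393, 473 and 623 with low-dose semaglutide, 238, 466 and 620.0 with high-dose semaglutide, and 306, 485 and 793 with the combination. The groups overlapped, and it did not pass in chow (-0.14 ± 0.15 (SE), adjusted p = 0.434) or with the combination (0.35 ± 0.15 (SE), adjusted p = 0.0871), the lowest and highest of its 6 values. Hsd17b4, the other bifunctional enzyme, lay between -0.21 with high-dose zalfermin (adjusted p = 0.0698) and 0.05.

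The 2 ketone body genes did not pass in any of the 14 comparisons. Bdh1, which reduces acetoacetate to β-hydroxybutyrate, had lowest, median and highest CPM of 203, 259.5 and 274 in DIO-MASH vehicle, 185, 239 and 287 in chow, 236, 252 and 273 with low-dose zalfermin, 192, 238 and 285 with high-dose zalfermin, 220.3, 235 and 326 with low-dose semaglutide, 201, 261 and 298 with high-dose semaglutide, and 142, 219 and 284 with the combination. The ranges overlapped, and the log2 fold changes ran from -0.20 ± 0.10 with the combination (adjusted p = 0.159) to 0.04 ± 0.10 with high-dose semaglutide (adjusted p = 0.874). Acat1, the acetoacetyl-CoA thiolase of mitochondria, lay between -0.08 in chow and 0.14 with high-dose semaglutide.

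The acyl-CoA thioesterases, which split acyl-CoA into fatty acid and free CoA, held the largest rises with treatment. Acot2, Acot1, Acot4 and Acot3 lie in this order on the plus strand of chromosome 12 (GRCm38, chr12:83987861-84060402), yet they did not move together. Acot3, of peroxisomes, had lowest, median and highest CPM of 3.80, 18 and 37.1 in DIO-MASH vehicle, 13.7, 28.4 and 43.8 in chow, 14.1, 21.9 and 45.3 with low-dose zalfermin, 26.2, 35.7 and 104 with high-dose zalfermin, 20.3, 23.8 and 31.3 with low-dose semaglutide, 16.1, 47.2 and 99.6 with high-dose semaglutide, and 14.7, 47.3 and 94.6 with the combination. The high-dose and combination groups reached well above vehicle but overlapped with it. Their log2 fold changes were 1.30 ± 0.33 (SE), adjusted p = 0.00364 (high-dose zalfermin, 2.46-fold), 1.45 ± 0.33 (SE), adjusted p = 0.0128 (high-dose semaglutide, 2.72-fold) and 1.30 ± 0.33 (SE), adjusted p = 0.00327 (combination, 2.46-fold). No mouse left out ended any of the 3 calls. In the transcripts of Acot3, 16% of the 75-base stretches also occur in other genes. Within runs A, B and C the combination differed from vehicle by 1.78, -0.30 and 1.33, so the rise was not seen in run B, and high-dose semaglutide by 1.99, 0.20 and 1.12.

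Acot4, also of peroxisomes, was 39.2, 85.2 and 121 CPM in DIO-MASH vehicle, 81.4, 100 and 122 in chow, 63.2, 96.2 and 119.7 with low-dose zalfermin, 78, 102 and 158 with high-dose zalfermin, 91.8, 96.6 and 105 with low-dose semaglutide, 72.7, 124 and 174 with high-dose semaglutide, and 83.6, 113 and 144 with the combination. Its groups overlapped, and it rose with high-dose semaglutide (0.63 ± 0.16 (SE), adjusted p = 0.0206) and, at the edge of the threshold, with the combination (0.42 ± 0.16 (SE), adjusted p = 0.0479). High-dose zalfermin did not pass (0.41 ± 0.16 (SE), adjusted p = 0.0623). The semaglutide call was lost without high-dose semaglutide mouse 2, 3 or 4 (adjusted p up to 0.0764), and the combination call in 10 of 17 fits that each left out 1 mouse (up to 0.116, without vehicle mouse 8). The combination call was also lost with the run of label numbers as a block (0.33 on the log2 scale, adjusted p = 0.115) and with no filter beyond 1 read (0.0593). A stricter filter (0.0531) and a fit of only the 2 groups compared (0.0784) ended it too. The semaglutide call was lost with only the 2 groups compared (0.0767). Within run B high-dose semaglutide differed from vehicle by -0.03 and the combination by -0.12.

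Acot1, of the cytosol, was 8.90, 20.4 and 36.5 CPM in DIO-MASH vehicle, 2.56, 21.6 and 52.4 in chow, 12.5, 32.8 and 39.6 with low-dose zalfermin, 12.1, 30.7 and 54.5 with high-dose zalfermin, 9.67, 22.6 and 44.2 with low-dose semaglutide, 19, 31.6 and 78.3 with high-dose semaglutide, and 28.5, 41.8 and 48 with the combination. The combination mice were all in the upper part of the vehicle range or above it (0.95 ± 0.32 (SE), adjusted p = 0.028). That call was lost without vehicle mouse 3 or 8 (adjusted p up to 0.0613) and with the run of label numbers as a block (0.87 on the log2 scale, adjusted p = 0.0501). Within runs A, B and C the combination differed from vehicle by 1.0, 0.95 and 0.45. High-dose semaglutide had the same rounded estimate and SE but did not pass (0.95 ± 0.32 (SE), adjusted p = 0.0977). The adjustment was made within each comparison, and 20.9% of all genes passed with the combination against 2.43% with high-dose semaglutide. The high-dose semaglutide mice overlapped more with vehicle.

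Acot2, the mitochondrial neighbour, moved the other way. Its CPM were 3.89, 12.3 and 31.3 in DIO-MASH vehicle, 1.35, 3.36 and 6.45 in chow, 5.36, 12.3 and 19.4 with low-dose zalfermin, 4.86, 7.38 and 9.72 with high-dose zalfermin, 7.27, 10.6 and 21.9 with low-dose semaglutide, 7.29, 12.1 and 18.5 with high-dose semaglutide, and 4.43, 7.14 and 11.1 with the combination. Chow was lowest, at 24% of vehicle (-2.06 ± 0.30 (SE), adjusted p = 1.11e-07), and high-dose zalfermin (-0.90 ± 0.28 (SE), adjusted p = 0.0191) and the combination (-0.78 ± 0.28 (SE), adjusted p = 0.0354) were also lower, with overlap. Vehicle mouse 6 held the highest value, and without it the adjusted p was 0.113 for high-dose zalfermin and 0.189 for the combination, whose call was lost in 7 of 17 fits that each left out 1 mouse and with only the 2 groups compared (0.0609). Acot1 and Acot2 are near-identical over part of their length: 20.5% of the 75-base stretches of Acot2 occur in Acot1 and 11.2% of those of Acot1 in Acot2, so counts from the shared part are uncertain.

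**Figure D4:**
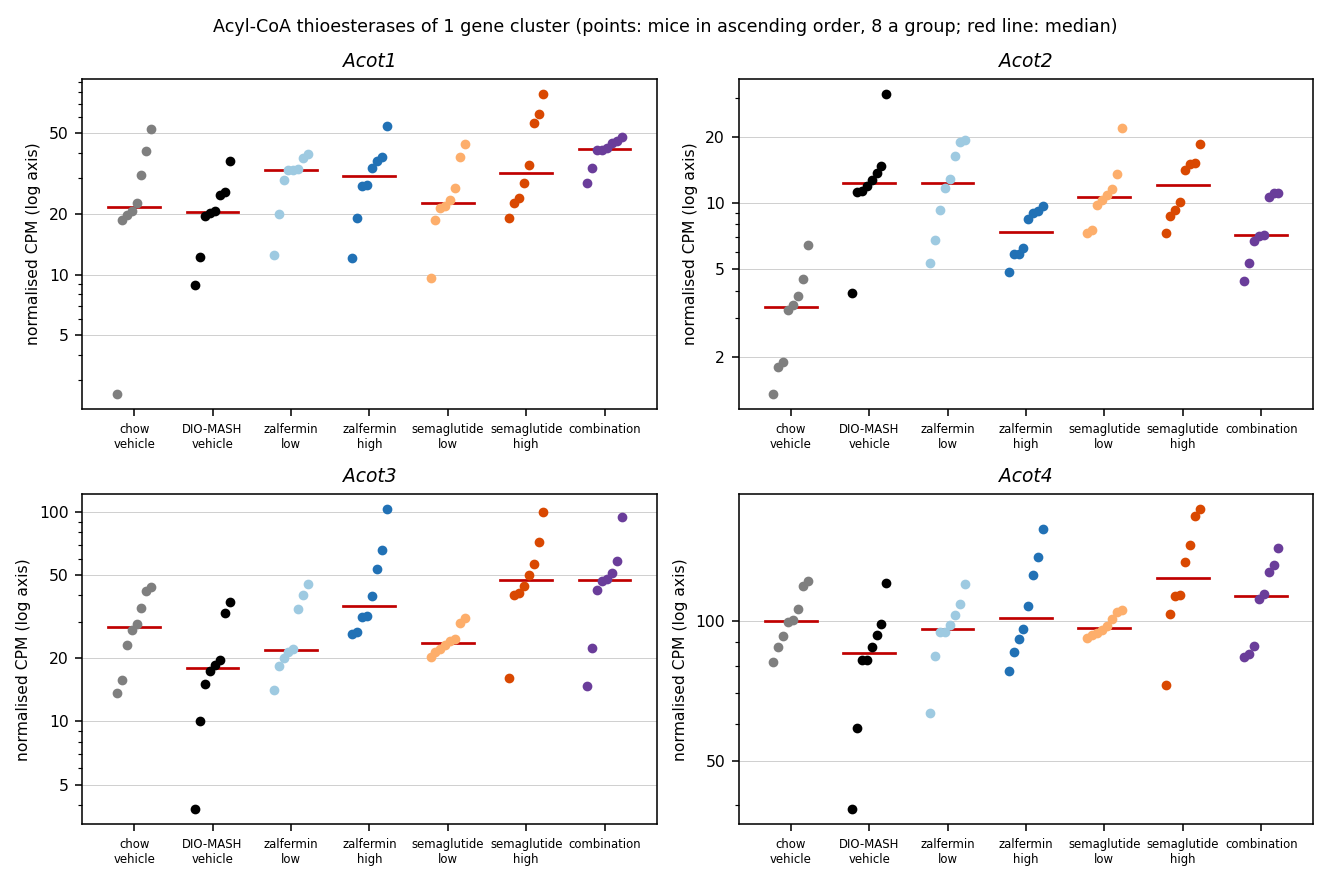
CPM (log axis) of Acot1, Acot2, Acot3 and Acot4 in each mouse of the 7 groups, with the group median as a red line. Acot3 medians are 35.7, 47.2 and 47.3 with high-dose zalfermin, high-dose semaglutide and the combination against 18 in DIO-MASH vehicle, whereas Acot2 is lowest in chow (median 3.36 against 12.3).

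Acot12, a cytosolic hydrolase of acetyl-CoA outside the cluster, was higher in every chow mouse than in any vehicle mouse (0.53 ± 0.10 (SE), adjusted p = 2.06e-05) and did not pass in the drug groups (0.11 to 0.23). Vnn1, the pantetheinase that breaks down a product of CoA and a known PPARα target, was lower in chow, with high-dose zalfermin and with the combination. Its lowest, median and highest CPM were 150.1, 189.9 and 247 in DIO-MASH vehicle, 24.6, 34.3 and 90.2 in chow, 122, 185 and 203 with low-dose zalfermin, 63.5, 116 and 146 with high-dose zalfermin, 122, 191 and 215 with low-dose semaglutide, 155, 176 and 216 with high-dose semaglutide, and 75.6, 131 and 175 with the combination. Every chow mouse and every high-dose zalfermin mouse was below every vehicle mouse, and the other groups overlapped. Chow was at 21.6% of vehicle (-2.21 ± 0.18 (SE), adjusted p = 2.53e-14), high-dose zalfermin at 57.4% (-0.80 ± 0.17 (SE), adjusted p = 0.000533) and the combination at 64.4% (-0.63 ± 0.17 (SE), adjusted p = 0.00554), while high-dose semaglutide was at 90.4% and did not pass (-0.15 ± 0.17 (SE), adjusted p = 0.694). Of all tested genes, 4.8% did not overlap between high-dose zalfermin and vehicle. None of its calls against vehicle was lost by leaving out a mouse.

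Pdk4, the kinase that shuts off pyruvate dehydrogenase and so spares glucose while fat is burned, showed the largest difference between chow and vehicle in the module. Its lowest, median and highest CPM were 6.86, 11.4 and 20.5 in DIO-MASH vehicle, 1.06, 2.64 and 3.15 in chow, 7.34, 10.9 and 25.6 with low-dose zalfermin, 2.43, 5.72 and 9.72 with high-dose zalfermin, 2.23, 11.8 and 20.3 with low-dose semaglutide, 4.79, 7.27 and 20.1 with high-dose semaglutide, and 4.70, 8.74 and 19.4 with the combination. Chow mice all lay below vehicle mice, at 19.4% of their level (-2.37 ± 0.35 (SE), adjusted p = 1.39e-07). High-dose zalfermin overlapped with vehicle and was at 46.2% (-1.11 ± 0.32 (SE), adjusted p = 0.011), and neither the combination (-0.32 ± 0.31 (SE), adjusted p = 0.478) nor high-dose semaglutide (-0.44 ± 0.31 (SE), adjusted p = 0.469) passed. Low-dose semaglutide mouse 6, the library apart from its group, held the lowest value of that group.

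**Figure D5:**
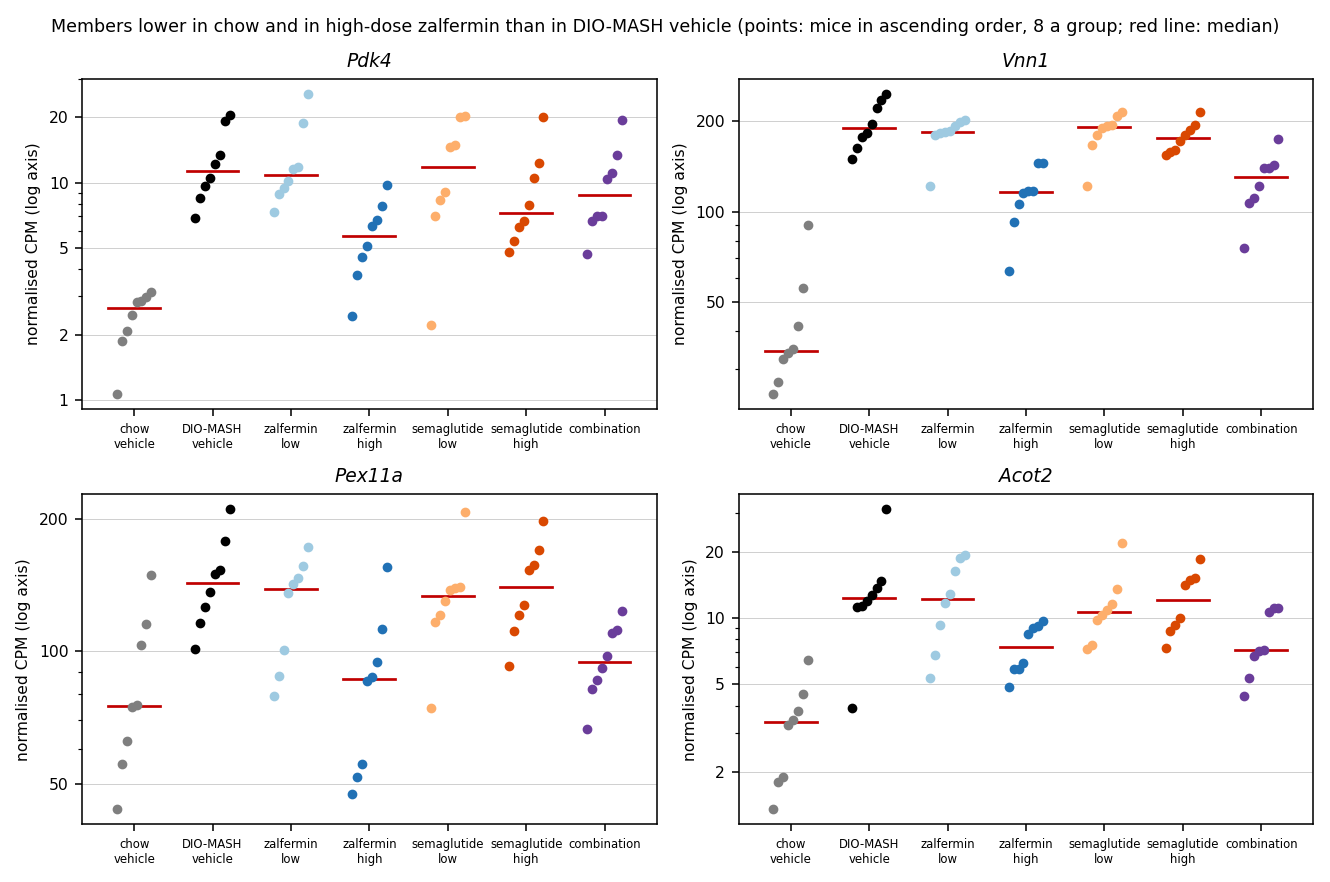
CPM (log axis) of Pdk4, Vnn1, Pex11a and Acot2 in each mouse of the 7 groups, with the group median as a red line. Chow medians are the lowest for all 4 genes (2.64, 34.3, 75.2 and 3.36), and high-dose zalfermin medians (5.72, 116, 86.5 and 7.38) lie below those of DIO-MASH vehicle (11.4, 189.9, 143 and 12.3).

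Treated groups were also compared with each other, to ask whether dose or the second drug changed the module further. High-dose against low-dose zalfermin called 2 of the 39 genes, both lower at the high dose, where 1.84% of all genes passed: Vnn1 (-0.68 ± 0.17 (SE), adjusted p = 0.0212) and Pdk4 (-1.17 ± 0.32 (SE), adjusted p = 0.0399). The Pdk4 call was lost in 11 of 17 fits that each left out 1 mouse (adjusted p up to 0.169, without low-dose zalfermin mouse 2), and the Vnn1 call without high-dose zalfermin mouse 6 or low-dose zalfermin mouse 2 or 4 (up to 0.0678). High-dose against low-dose semaglutide called none, with 0% of all genes, 4 members at an unadjusted p below 0.05 and none by DESeq2.

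Against low-dose zalfermin the combination called 2 genes in edgeR, where 6.62% of all genes passed, and 5 in DESeq2. Etfb was higher (0.44 ± 0.12 (SE), adjusted p = 0.0213) and Cpt1a lower (-0.43 ± 0.14 (SE), adjusted p = 0.0441), and without combination mouse 6, the lowest Cpt1a value of all 56 mice, neither passed (adjusted p = 0.0743 and 0.117). The Cpt1a call was lost in 8 of 17 such fits and the Etfb call also without low-dose zalfermin mouse 5, while the count was 6 without low-dose zalfermin mouse 1, 5 without low-dose semaglutide mouse 6 and 4 without combination mouse 2. Against low-dose semaglutide none passed in edgeR, where 4.21% of all genes did, although 12 had an unadjusted p below 0.05 and DESeq2 called 2, and edgeR called 6 without low-dose semaglutide mouse 6 and 1 without low-dose semaglutide mouse 2 or 5 or combination mouse 2, 4 or 6. Against high-dose semaglutide the combination was lower in Cpt1a alone (-0.48 ± 0.14 (SE), adjusted p = 0.0486), where 1.89% of all genes passed, a call lost in 12 of 17 fits that each left out 1 mouse (adjusted p up to 0.141, without combination mouse 6).

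The combination and high-dose zalfermin differed in none of the 39 genes, where 0.503% of all genes passed. There 5 members had an unadjusted p below 0.05, DESeq2 called none, and Pdk4 differed by 0.79 ± 0.32 (adjusted p = 0.311), higher with the combination. High-dose zalfermin against high-dose semaglutide also called none, where 0.447% of all genes passed, with 8 members at an unadjusted p below 0.05 and 1 called by DESeq2, and edgeR called 2 without high-dose zalfermin mouse 4 and 1 without high-dose zalfermin mouse 7, high-dose semaglutide mouse 3 or low-dose semaglutide mouse 6. The interaction of the low doses (the combination less both low-dose effects), which has this meaning only if the combination was given at the low doses, called 0 of the 39, where 0.0142% of all genes passed. None had an unadjusted p below 0.05 there, and DESeq2 also called none. Those values do not show that the groups act alike, and the interaction of single genes ranged from -0.50 to 0.47 on the log2 scale.

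Other genes of the pathway were counted from lists of 54 genes, all in the table and tested. Against DIO-MASH vehicle, chow had 29 higher and 7 lower (66.7% of the 54, where 55.4% of all genes passed), the combination 14 and 3 (31.5%, against 20.9%), and high-dose zalfermin 17 and 4 (38.9%, against 17.2%). Zalfermin at its low dose and semaglutide at its high dose each had 1 higher and none lower (1.85%, against 0.468% and 2.43% of all genes). Low-dose semaglutide had none, as for all genes. In chow the largest were Bdh2 (2.0 ± 0.29 log2, SE, adjusted p = 6.28e-08), Acot9 (-1.84 ± 0.22, 9.33e-10), a mitochondrial thioesterase, and Lpin1 (1.61 ± 0.30, 1.32e-05), a phosphatidate phosphatase that also works with PGC-1α and PPARα. Hacl1, the lyase of peroxisomal α-oxidation, rose with the combination (1.66 ± 0.20, 3.01e-08) and with high-dose zalfermin (1.15 ± 0.20, 3.31e-05). With the same 2 treatments Lpin1 rose (0.94 ± 0.30, 0.0187, and 1.17 ± 0.30, 0.00393) and Acot9 fell (-0.94 ± 0.21, 0.000798, and -1.19 ± 0.21, 4.19e-05). Slc27a5, the bile acid and very-long-chain acyl-CoA synthetase of liver, was the 1 gene of the 54 that passed with low-dose zalfermin (0.47 ± 0.11, 0.0403) and with high-dose semaglutide (0.48 ± 0.11, 0.0152).

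By list, the 9 genes of activation and uptake gave 4 higher and 1 lower in chow, 2 higher with the combination and 4 with high-dose zalfermin. The 18 of peroxisomes gave 9 and 1 in chow, and 4 and 2 with each of these treatments. The 7 further acyl-CoA dehydrogenases gave 5, 3 and 4 higher and none lower, and the 11 partners and co-regulators of PPARα gave 9, 4 and 4 higher and none lower. The 4 further thioesterases gave 1 higher and 2 lower in chow and 1 of each with these treatments. The 5 genes of ketone body use and export gave 1 higher and 3 lower in chow, none with the combination and 1 lower with high-dose zalfermin. In the direct comparisons the most to pass were 5 of the 54 (9.26%), for the combination against either low dose. Of all genes, 6.62% passed against low-dose zalfermin and 4.21% against low-dose semaglutide.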

How the data were processed

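Liver RNA from 56 mice was sequenced. According to the study the libraries were strand-specific and made from mRNA. The authors deposited 1 table of gene counts, whole numbers that were not normalised. The submitters' processing notes name Trim Galore 0.6.4, Salmon 1.9.0 and GRCm38, without their roles, and the study names the aligner STAR. The counting program and its strand setting are not given in the sources used here.

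The counts as deposited were tested with edgeR 4.0.16 (R 4.3.3, limma 3.58.1): genes with at least 5 reads in at least 3 mice, TMM normalisation, 1 quasi-likelihood fit over the 7 groups, and Benjamini-Hochberg adjustment over all 14105 genes at 0.05. CPM are TMM-normalised, and log2 CPM used a prior count of 2. The SE of a log2 fold change was derived from edgeR's output, as its absolute value divided by the square root of the test's F statistic. Depth was 5228187 to 20885786 reads a mouse, which limits precision mainly for genes of a few CPM. Groups were taken from the labels. Each sample was taken as a separate mouse, since the labels carry different numbers. The closest pair of mice in a group differed by more than sampling noise (chi-square 7.57 per degree of freedom), so none was counted as a repeat. The script was tested on simulated counts.

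The 39 genes, the lists of other pathway genes and markers, and the tests were chosen with earlier results of these data known. Of the 39, those with the 5 largest called changes in a comparison with DIO-MASH vehicle, and Ppara, Creb3l3, Cpt1a, Acadm, Hadha, Ehhadh and Bdh1, were given with full values. The 3 largest called changes were named for other pathway genes. Marker lists covered hepatocytes, Kupffer cells, monocyte-derived macrophages, stellate cells, sinusoidal endothelium, B cells, T cells, cholangiocytes, adipocytes, red blood cells, muscle and brown fat. Alternatives were DESeq2 1.42.0, other size factors, other filters and fits to the 2 groups compared. Further ones were the run of the numbers in the labels as a block, and each mouse left out.

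Upstream sequences and start sites are from RefSeq (GRCm38.p6), and positions and shared 75-base stretches are from GENCODE M21 transcripts. They were compared for letters only.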

Additional observations from a re-analysis of the deposited data

Results flagged for a closer look

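Outlying mice were sought in 119 groups of 8 mice (16 genes with full values and the score, each in 7 groups). The gap of the highest or lowest mouse to the next, divided by the range on the log2 scale, was compared with Dixon's critical value. In 9 groups it was exceeded, and these are given below in CPM. Chance flags about 1 in 20 such groups. Combination mouse 6 lay apart as the lowest for Ppara (50.4 CPM, next mouse 104) and Cpt1a (333 CPM, next 551). Chow mouse 2 lay apart as the lowest for Hadha (395 CPM, next 518), Acaa1b (234 CPM, next 918) and Acot1 (2.56 CPM, next 18.6). Low-dose semaglutide mouse 6 lay apart as the highest for Acadm (372 CPM, next 304) and the lowest for Vnn1 (122 CPM, next 167). For Vnn1 low-dose zalfermin mouse 1 was also apart (122 CPM, next 180.0), and for Bdh1 DIO-MASH vehicle mouse 8 was (203 CPM, next 240.0).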

How the results depend on the processing

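The alternative fits used DESeq2's test or size factors, other filters, only the 2 groups compared, or the run of label numbers as a block. In them the number of the 39 genes called against DIO-MASH vehicle was 17 to 21 for chow and 12 to 15 for the combination. It was 8 to 14 for high-dose zalfermin, 1 to 2 for high-dose semaglutide and 0 for both low doses. Fits to only the 2 groups compared gave 14 and 1 for the high doses of zalfermin and semaglutide. DESeq2 gave 5 for the combination against low-dose zalfermin, 2 against low-dose semaglutide and 1 for high-dose zalfermin against high-dose semaglutide. With 1 mismatch allowed, the response element was upstream of 24.2% of the 33 genes with a sequence, against 3.03% with none. The cause of these differences was not tested.

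Leaving out 1 mouse at a time gave 17 to 21 calls for chow, 0 to 0 for each low dose, 9 to 15 for the combination, 8 to 11 for high-dose zalfermin and 1 to 6 for high-dose semaglutide. In the direct comparisons it gave 0 to 6 for the combination against low-dose zalfermin and against low-dose semaglutide, 0 to 2 between the zalfermin doses and between the high doses of the 2 drugs, and 0 to 1 for the combination against high-dose semaglutide. It gave 0 to 0 for high-dose against low-dose semaglutide, the combination against high-dose zalfermin and the interaction. Fits without chow mouse 8 in comparisons that do not include chow were chosen after seeing the data. No value of a called gene changed direction in these settings. The labels give no replicate numbers shared between groups, but the numbers they do carry fall into runs, and these were fitted as a block. The block ended the combination calls of Eci2, Acot1 and Acot4 and no other call against DIO-MASH vehicle. It added Cpt1a for the combination, Acaa2 and Etfb for high-dose zalfermin, and Decr1 and Acot4 for chow, giving 13, 10 and 21 calls.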
